A study of Mus musculus with 6 samples.

Results

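Fatty acid oxidation, the breakdown of fatty acids 2 carbons at a time in mitochondria and peroxisomes, was followed through 35 genes of the 24054 genes in the deposited table. The genes were chosen by name for their known place in the pathway, and every name was found in the table. By where the encoded protein is known to work, 18 were set down as mitochondrial, 7 as peroxisomal and 4 as shared by both (Crat, Ech1, Eci2 and Amacr). A further 4 were the acyl-CoA synthetases Acsl1, Acsl3, Acsl4 and Acsl5, which sit on several membranes, and 2 were the nuclear receptors Ppara and Ppard.

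The cells were macrophages grown from mouse bone marrow for 7 days in medium conditioned by L929 fibroblasts. RNA was sequenced from Kindlin3-integrin mutant macrophages on the C57BL/6 background after 24 hours with 50 µg/ml oxidised low-density lipoprotein, oxLDL (2 libraries), from the same mutant left untreated (2 libraries), from C57BL/6 wild-type macrophages given oxLDL in the same way (1 library) and from wild-type macrophages left untreated (1 library). The series asks how the transcriptome of mutant and wild-type macrophages differs with and without this oxidised lipoprotein, which loads macrophages with lipid in atherosclerotic plaques. Titles mark the mutant as KI, and the kind of mutation, the sex and age of the mice, and whether the libraries came from separate animals or cultures are not given in the sources used here, so each p-value speaks only of the spread among these 6 libraries, which may be technical.

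A fatty acid is first coupled to coenzyme A by an acyl-CoA synthetase. Long chains then cross into mitochondria as carnitine esters, and each turn of the cycle there runs through an acyl-CoA dehydrogenase, a hydratase, a hydroxyacyl-CoA dehydrogenase and a thiolase, while electrons pass through the electron transfer flavoprotein to the respiratory chain. Peroxisomes take in very long and branched chains through ABC transporters and start the cycle with an oxidase that makes hydrogen peroxide. PPARα and PPARδ are lipid-sensing receptors known to switch on many of these genes, and oxidation of fatty acids is a known feature of macrophages that handle large lipid loads.

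Library totals lay between 11281659 and 24273497 counts, so that 3 counts, the limit a count of 0 allows for, came to between 0.122 and 0.265 CPM (the count of a gene scaled to the size of its library, with trimmed mean of M-values factors). Fermt3, which encodes kindlin-3, had 146 and 153 CPM in mutant oxLDL libraries, against 241 and 249 CPM in mutant untreated libraries, and 188 CPM in the wild-type oxLDL library, against 403 CPM in the wild-type untreated library. The summed level of 11 macrophage markers in the table was 24692 and 19154 CPM in mutant oxLDL libraries, against 35128 and 27389 CPM in mutant untreated libraries, and 14710 CPM in the wild-type oxLDL library, against 23264 CPM in the wild-type untreated library. Lyz2 was the largest single part of that sum in every library. It had 15155 and 10606 CPM with oxLDL, against 20965 and 15487 CPM untreated, in the mutant. In wild type it had 5684 CPM with oxLDL, against 8898 CPM untreated. Single markers moved with oxLDL in both directions: Emr1 had 823 and 815 CPM with oxLDL, against 4425 and 4417 CPM untreated, in the mutant, and 1095 CPM with oxLDL, against 6185 CPM untreated, in wild type. Csf1r, Cd14, Fcgr1 and Ptprc were likewise lower in every oxLDL library than in any untreated one, and Cd68 and Mertk were higher. Their part in the results for oxLDL was not tested. Adipocyte and hepatocyte markers, from cell types rich in this pathway, summed to at most 0.0882 and 1.41 CPM in any library, and 6 of 8 adipocyte markers were at 0 in all of them. A list of 24 pancreas markers, none of them at 0 in every library, summed to 210 and 167 CPM in mutant oxLDL libraries, against 3.18 and 3.47 CPM in mutant untreated libraries, and to 1.92 CPM in the wild-type oxLDL library, against 283 CPM in the wild-type untreated library. Neutrophil markers summed to 39.2 CPM in the wild-type untreated library and to at most 2.24 CPM in any other.

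With oxLDL, transcripts of the mitochondrial entry step (Cpt1a), of the peroxisomal oxidase Acox3, of the transporter Abcd2, of the thioesterase Acot2 and of the receptor Ppard were between 2.04-fold and 2.55-fold higher than without it, and the synthetase Acsl5 was 2.77-fold lower. Several enzymes inside the mitochondrial cycle rose by smaller amounts. Of the 35 genes, 34 had counts high enough to test and Ppara had 0 counts in all 6 libraries. Across both genotypes (3 oxLDL against 3 untreated libraries, edgeR's quasi-likelihood test with genotype in the model, Benjamini-Hochberg adjustment over 12689 genes, called at a false discovery rate of 0.05), 12 of the 34 rose, 1 fell and 21 did not pass. The 13 calls became 8 without mutant oxLDL library 1 and 6 without mutant untreated library 2. Of all genes tested, 40.5% were called, 19.1% higher and 21.4% lower, so a change in itself was common, while 35.3% of the tested fatty acid oxidation genes were called higher and 2.94% lower. Their median log2 fold change was 0.24, against 0.01 over all genes tested, and 26 of the 34 had a positive value. In bulk RNA of this kind, a different share of cells of one kind and a different amount of RNA per cell cannot be told apart.

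Split by compartment, 7 of 18 mitochondrial genes rose, none fell and 11 did not pass, with a median log2 fold change of 0.28. Of the 7 peroxisomal genes 3 rose, none fell and 4 did not pass, with a median of 0.32. Levels of the mitochondrial genes summed to 1038 and 946 CPM in mutant oxLDL libraries, against 748 and 704 CPM in mutant untreated libraries, and 938 CPM in the wild-type oxLDL library, against 670.2 CPM in the wild-type untreated library. Peroxisomal genes summed to 486 and 487 CPM in mutant oxLDL libraries, against 371 and 330.4 CPM in mutant untreated libraries, and 438 CPM in the wild-type oxLDL library, against 384 CPM in the wild-type untreated library. In both sums every oxLDL library lay above every untreated library. The peroxisomal sum rests heavily on Acox3, which had 159 to 191 CPM with oxLDL and 79.2 to 96.9 CPM untreated. In the wild-type pair the median log2 fold change of the 6 peroxisomal genes that reached 5 CPM was -0.04. Neither these sums nor a difference between the compartments was tested.

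Within the mutant alone (2 oxLDL against 2 untreated libraries), 11 genes rose, 2 fell and 21 did not pass, and the background was 35.6% called, 16.5% higher and 19.1% lower. The 13 calls in the mutant became 6 without mutant untreated library 2 and 8 by DESeq2. The mutant libraries are part of both tests, so the tests are not independent. Of the genes called, 11 were called in both, Hadh and Amacr only across genotypes, and Decr1 and Acsl1 only in the mutant. All 13 genes called across genotypes had the same direction in the single wild-type pair. That pair is part of the test across genotypes, so this agreement is not independent of it. The pancreas markers ran the opposite way in the wild-type pair to the mutant. When the pancreas markers were left out before scaling, 14 genes were called across genotypes and 13 in the mutant. That step removes the marker genes alone and cannot show whether pancreas RNA adds to other counts, which was not tested. The higher neutrophil sum of the wild-type untreated library moves with the wild-type contrast, and its part in the values was not tested.

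**Figure D1:**
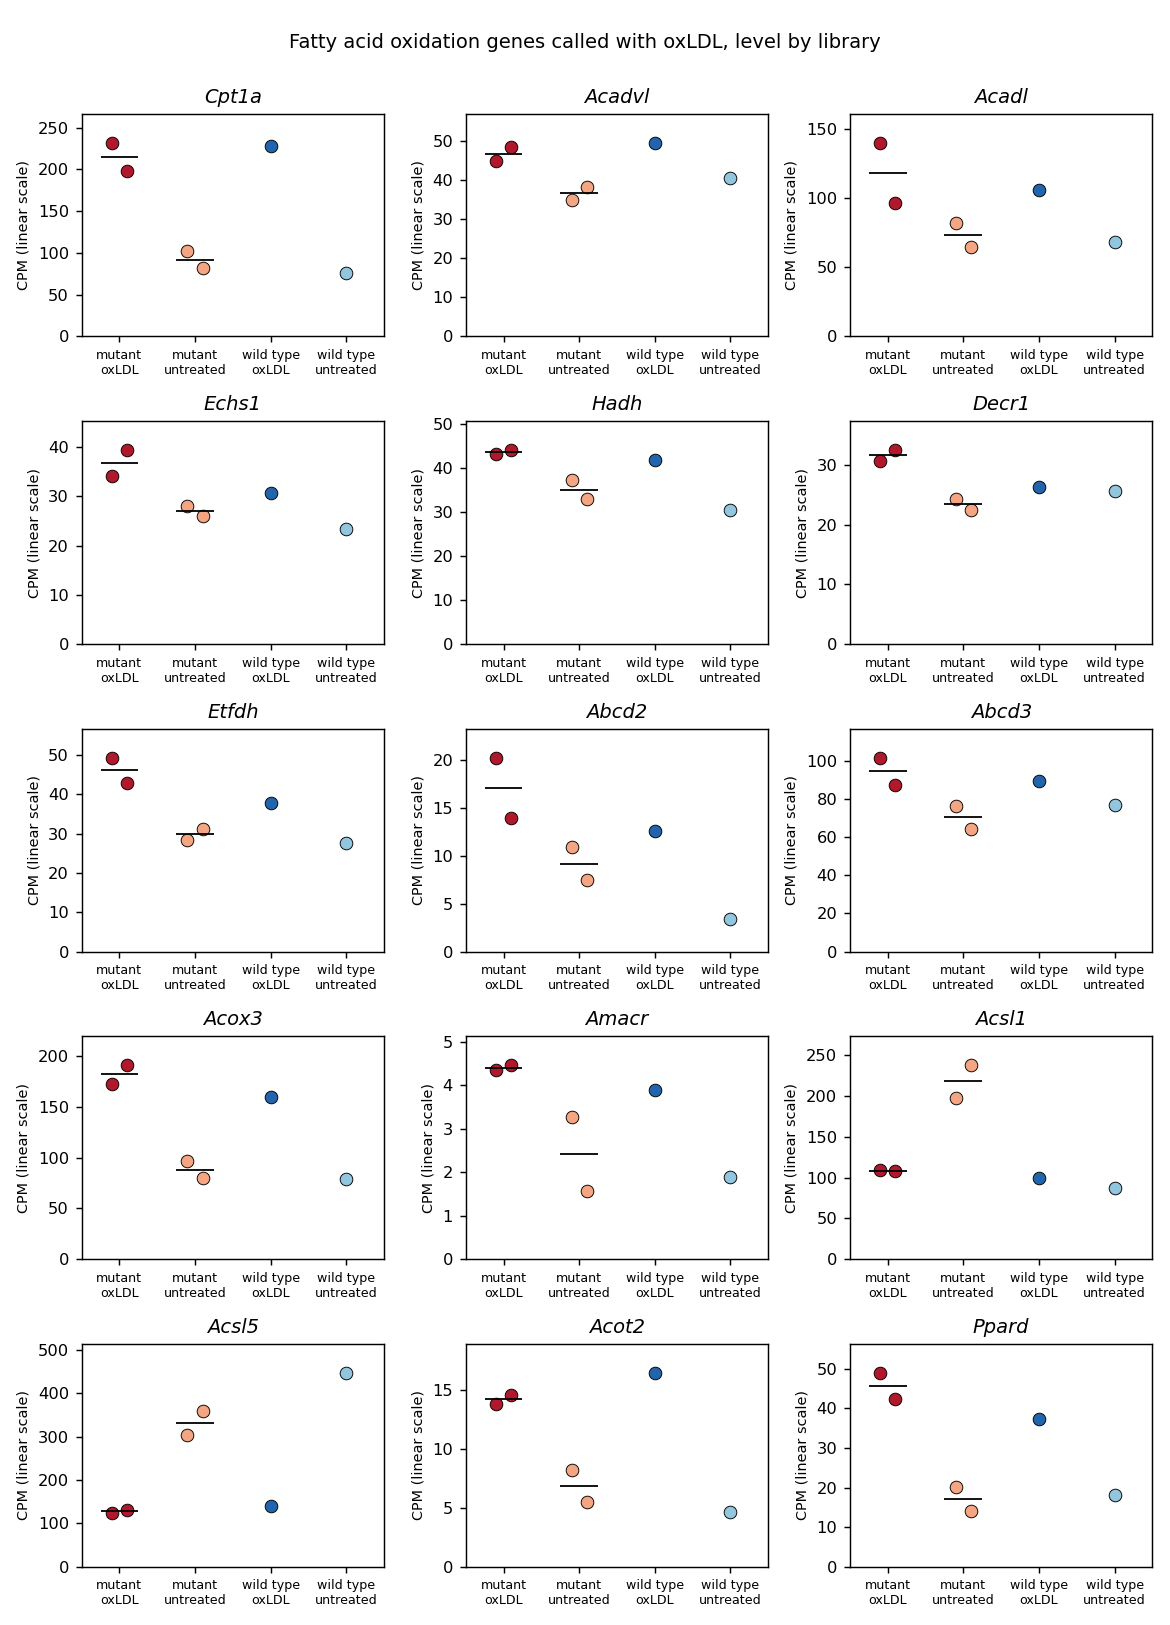
Level of each fatty acid oxidation gene called with oxLDL, across genotypes or in the mutant, as CPM on linear axes that start at 0. Points are libraries (2 mutant oxLDL, 2 mutant untreated, 1 wild-type oxLDL, 1 wild-type untreated), and bars mark the means of the mutant pairs. For Cpt1a the oxLDL points sit at 198 CPM and above and the untreated points at 102 CPM and below, while for Acsl5 the order is turned round.

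The stretches just before the annotated start of transcription are shown for 5 of the 6 genes with a change of at least 2-fold. Echs1 is shown as a called gene with a match, at 2 mismatches, to the element that PPAR and RXR bind. Etfa had a match of that kind too, but it was not called and is not shown. The 250 bases before the start come from RefSeq on mouse GRCm38.p6, 5′ to 3′ on the strand of the gene, with a GGGCGG box or its reverse complement in capitals, and in Echs1 also the match to AGGTCANAGGTCA.
Cpt1a, chr19:3323051-3323300, plus strand: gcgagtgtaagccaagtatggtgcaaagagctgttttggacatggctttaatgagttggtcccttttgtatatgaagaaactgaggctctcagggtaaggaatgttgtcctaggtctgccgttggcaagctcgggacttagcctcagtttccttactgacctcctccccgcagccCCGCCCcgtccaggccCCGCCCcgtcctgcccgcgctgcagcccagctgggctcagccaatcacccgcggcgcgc
Echs1, chr7:140116422-140116671, minus strand: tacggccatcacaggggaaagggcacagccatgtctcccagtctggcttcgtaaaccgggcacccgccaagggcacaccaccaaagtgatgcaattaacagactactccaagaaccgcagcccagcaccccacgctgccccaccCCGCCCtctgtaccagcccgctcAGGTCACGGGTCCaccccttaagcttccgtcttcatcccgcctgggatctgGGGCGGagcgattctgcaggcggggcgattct
Acox3, chr5:35582784-35583033, plus strand: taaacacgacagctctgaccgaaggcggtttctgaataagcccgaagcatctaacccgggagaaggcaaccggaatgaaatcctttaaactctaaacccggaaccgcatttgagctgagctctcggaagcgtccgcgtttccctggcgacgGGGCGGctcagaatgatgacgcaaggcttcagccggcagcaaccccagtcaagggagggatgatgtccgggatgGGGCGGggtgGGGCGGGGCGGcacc
Acsl5, chr19:55253119-55253368, plus strand: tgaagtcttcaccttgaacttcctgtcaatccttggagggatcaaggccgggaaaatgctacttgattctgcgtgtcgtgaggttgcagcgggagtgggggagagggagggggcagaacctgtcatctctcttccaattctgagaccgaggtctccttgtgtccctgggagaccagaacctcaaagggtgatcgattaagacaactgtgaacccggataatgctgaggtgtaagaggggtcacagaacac
Acot2, chr12:83987611-83987860, plus strand: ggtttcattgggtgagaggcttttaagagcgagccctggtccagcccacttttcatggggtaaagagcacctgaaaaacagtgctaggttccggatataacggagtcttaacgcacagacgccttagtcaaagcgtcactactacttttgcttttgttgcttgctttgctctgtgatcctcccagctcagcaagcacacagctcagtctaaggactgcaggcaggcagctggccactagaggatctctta
Ppard, chr17:28232504-28232753, plus strand: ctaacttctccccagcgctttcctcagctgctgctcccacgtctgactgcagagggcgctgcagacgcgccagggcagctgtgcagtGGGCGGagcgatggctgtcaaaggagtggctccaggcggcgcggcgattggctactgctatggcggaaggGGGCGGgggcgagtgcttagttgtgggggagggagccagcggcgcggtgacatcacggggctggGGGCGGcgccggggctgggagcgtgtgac

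Windows of this kind were found for 29 of the 35 genes, 31 windows in all, and Abcd2 was among the genes without one. AGGTCANAGGTCA, a direct repeat spaced by 1 base, was searched on both strands with up to 2 mismatches. It occurred in 2 of the 31 windows, those of Echs1 (83 bases before the start) and Etfa (77 bases before the start), and in 3.24% of 32851 windows of all genes. With at most 1 mismatch it was in none of the 31 and in 0.484% of all. TGACNNNGC, the core of the antioxidant response element, was in 1 of the 31 windows, that of Ehhadh, and in 10.2% of all windows. A GGGCGG box, the motif of SP1-type factors, was in 20 of the 31 and in 32.7% of all, and it was in the windows of 6 of the 10 genes with a window that rose with oxLDL. Boxes may overlap one another, as in Acox3. The bases that follow the Acox3 window were not found unbroken in its GENCODE M21 transcripts, so that start is less certain. The same held for Acadvl, Acadl, Acadm, Etfb, Ehhadh and Phyh. The median GC content of the 31 windows was 59.6%, against 52.4% for all windows, and their median number of CpG pairs was 14, against 6. The windows of all genes were not limited to genes with enough counts to test here. Whether the windows of tested genes alone would differ in the same way was not tested. The printed windows differ in this way too: Ppard has 3 boxes and 22 CpG pairs and Acox3 has 4 boxes and 21 CpG pairs, whereas Acsl5, the gene that fell, and Acot2, a gene that rose, have no box. These matches describe letters in a window and no binding was measured.

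Carnitine carries long chains across the mitochondrial membranes, and of the 4 genes of this shuttle only Cpt1a passed the test. Cpt1a encodes the outer-membrane carnitine palmitoyltransferase, the step at which entry is held back by malonyl-CoA. It had 232 and 198 CPM in mutant cells with oxLDL, against 102 and 81.4 CPM in mutant cells left untreated, and 228 CPM in wild-type cells with oxLDL, against 75.4 CPM in wild-type cells left untreated. Every oxLDL library lay well above every untreated library. The mean was 219 ± 18.8 CPM with oxLDL and 86.2 ± 13.9 CPM untreated (SD, n = 3 each), a rise with a log2 change of 1.35 ± 0.14 SE, 2.55-fold, adjusted p = 0.000663 by edgeR. In the mutant alone the log2 fold change was 1.23 ± 0.14 SE (adjusted p = 0.00227), beside 1.59 in the wild-type pair.

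The other genes of the shuttle did not pass. Slc25a20, the translocase that exchanges acylcarnitine for carnitine across the inner membrane, had 19.9 and 18.6 CPM with oxLDL, against 23.4 and 20.7 CPM untreated, in the mutant, and 21.8 CPM with oxLDL, against 21.9 CPM untreated, in wild type. Cpt2, which gives the chain back to coenzyme A inside, had 21.1 and 19.5 CPM with oxLDL, against 16.2 and 18.5 CPM untreated, in the mutant, and 17.8 CPM with oxLDL, against 16.7 CPM untreated, in wild type. Crat, the acetyltransferase for short chains in mitochondria and peroxisomes, had 94.5 and 94.5 CPM with oxLDL, against 80.4 and 67.9 CPM untreated, in the mutant, and 77.9 CPM with oxLDL, against 77.1 CPM untreated, in wild type. The wild-type pair of Crat was nearly level, whereas both mutant oxLDL libraries lay above every other library. Their adjusted p-values across genotypes by edgeR were 0.369 for Slc25a20, 0.222 for Cpt2 and 0.131 for Crat, with log2 fold changes of -0.13 ± 0.11 SE, 0.18 ± 0.11 SE and 0.24 ± 0.11 SE.

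The acyl-CoA dehydrogenases open each turn of the mitochondrial cycle, and each prefers a chain length. Of the 4, the long-chain enzyme Acadl and the very-long-chain enzyme Acadvl rose, and the medium-chain Acadm and the short-chain Acads did not pass. Acadl had 139.9 and 96.4 CPM in mutant cells with oxLDL, against 81.5 and 64.5 CPM in mutant cells left untreated, and 106 CPM in wild-type cells with oxLDL, against 67.9 CPM in wild-type cells left untreated. The 3 oxLDL values lay above the 3 untreated values, with a wide gap between the mutant oxLDL libraries themselves (log2 fold change 0.68 ± 0.16 SE, 1.60-fold, adjusted p = 0.0167 by edgeR). Acadvl had 44.8 and 48.4 CPM with oxLDL, against 34.9 and 38.2 CPM untreated, in the mutant, and 49.6 CPM with oxLDL, against 40.6 CPM untreated, in wild type. Its groups did not overlap, but the differences were small (log2 fold change 0.33 ± 0.09 SE, 1.26-fold, adjusted p = 0.0261 by edgeR). Acads had 24.6 and 23.6 CPM with oxLDL, against 20.9 and 21.2 CPM untreated, in the mutant, and 19.8 CPM with oxLDL, against 16.0 CPM untreated, in wild type, with overlap and a log2 change of 0.23 ± 0.09 SE, adjusted p = 0.0916 by edgeR. Acadm, the enzyme deficient in the most common human disorder of this pathway, ranged over 63.8 to 84.7 CPM (adjusted p = 0.229), and its untreated and oxLDL values overlapped. Acadl lost its call without mutant untreated library 2 (adjusted p = 0.0745), and Acadvl lost it without any 1 of the 4 mutant libraries (adjusted p between 0.0613 and 0.0941).

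The hydratase Echs1 and the dehydrogenase Hadh rose among the 5 genes of the later steps of the cycle. Echs1, the short-chain enoyl-CoA hydratase, had 34.3 and 39.4 CPM in mutant cells with oxLDL, against 28.1 and 26.0 CPM in mutant cells left untreated, and 30.8 CPM in wild-type cells with oxLDL, against 23.4 CPM in wild-type cells left untreated. It was higher with oxLDL in either genotype, with no overlap (log2 fold change 0.43 ± 0.10 SE, 1.35-fold, adjusted p = 0.0143 by edgeR). Hadh, which oxidises medium and short 3-hydroxyacyl-CoA, had 43.3 and 44.1 CPM with oxLDL, against 37.3 and 33.0 CPM untreated, in the mutant, and 41.9 CPM with oxLDL, against 30.5 CPM untreated, in wild type. The untreated values all lay below the oxLDL values (log2 fold change 0.36 ± 0.09 SE, 1.29-fold, adjusted p = 0.0218 by edgeR), and in the mutant alone the adjusted p was 0.0690. Echs1 lost its call without mutant untreated library 2 (adjusted p = 0.0626). Hadh lost it without any single library other than mutant untreated library 1 (adjusted p between 0.0557 and 0.0796), where leaving out a wild-type library leaves a test on the mutant pairs.

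Hadha and Hadhb encode the subunits of the trifunctional protein, which carries out the same later steps on long chains at the inner membrane. Hadhb had 56.2 and 50.2 CPM with oxLDL, against 44.5 and 43.4 CPM untreated, in the mutant, and 48.5 CPM with oxLDL, against 41.2 CPM untreated, in wild type, with a log2 change of 0.26 ± 0.09 SE, adjusted p = 0.0514 by edgeR, just short of the threshold. Hadha had 148 and 137 CPM with oxLDL, against 138 and 135 CPM untreated, in the mutant, and 128 CPM with oxLDL, against 122 CPM untreated, in wild type, and its log2 fold change was 0.07 ± 0.07 SE (adjusted p = 0.516). The genes lie back to back, and their windows before the start overlap on chromosome 5. Of the 75-base stretches of Hadhb, 16.7% also occur in other mouse genes, most often Gm13910, so the count of Hadhb is less certain. Gm13910 is outside the deposited table, and 0.22% of the stretches were shared with genes in it. Acaa2, the thiolase that ends the cycle, had 24.2 and 20.5 CPM with oxLDL, against 19.3 and 14.1 CPM untreated, in the mutant, and 21.3 CPM with oxLDL, against 17.6 CPM untreated, in wild type, and although its oxLDL values were all the higher ones, the mutant untreated libraries lay apart from each other (log2 fold change 0.37 ± 0.15 SE, adjusted p = 0.0912 by edgeR).

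Double bonds in unsaturated chains need 4 auxiliary enzymes, and none of these genes passed across genotypes. Decr1, the 2,4-dienoyl-CoA reductase of mitochondria, had 30.7 and 32.5 CPM in mutant cells with oxLDL, against 24.3 and 22.5 CPM in mutant cells left untreated, and 26.3 CPM in wild-type cells with oxLDL, against 25.7 CPM in wild-type cells left untreated. The mutant oxLDL libraries stood above the rest and the wild-type pair was level. It was called in the mutant (log2 fold change 0.43 ± 0.11 SE, 1.35-fold, adjusted p = 0.0288 by edgeR) and not across genotypes (adjusted p = 0.0838). The test of the difference between genotypes did not pass (adjusted p = 0.512). In the mutant the call was lost by DESeq2 (adjusted p = 0.129) and without mutant oxLDL library 2 (0.0861), mutant untreated library 1 (0.0712) or mutant untreated library 2 (0.151).

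Eci1, an enoyl-CoA isomerase of mitochondria, had 7.62 and 7.73 CPM with oxLDL, against 5.47 and 6.58 CPM untreated, in the mutant, and 6.71 CPM with oxLDL, against 6.44 CPM untreated, in wild type. Eci2, an isomerase found in both organelles, ranged over 24.2 to 34.1 CPM, and Ech1, the dienoyl-CoA isomerase of both organelles, ranged over 34.0 to 41.8 CPM. The oxLDL and untreated values of Eci2 and of Ech1 overlapped, those of Eci1 did not, and the log2 fold changes of the 3 isomerases were 0.25 ± 0.16 SE for Eci1, 0.11 ± 0.13 SE for Eci2 and 0.12 ± 0.10 SE for Ech1 (edgeR adjusted p = 0.266, 0.536 and 0.394).

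Electrons of the dehydrogenases leave through the electron transfer flavoprotein, of which Etfa and Etfb encode the subunits, to its membrane dehydrogenase Etfdh. Etfdh rose, and the subunits did not pass. Etfdh had 49.3 and 42.8 CPM in mutant cells with oxLDL, against 28.4 and 31.2 CPM in mutant cells left untreated, and 37.8 CPM in wild-type cells with oxLDL, against 27.6 CPM in wild-type cells left untreated. Its oxLDL values stood clear of its untreated values (log2 fold change 0.57 ± 0.10 SE, 1.48-fold, adjusted p = 0.00575 by edgeR), and it was called in the mutant too (adjusted p = 0.0108, or 0.0555 without mutant untreated library 1). Etfa had 47.3 and 45.3 CPM with oxLDL, against 39.7 and 40.0 CPM untreated, in the mutant, and 41.2 CPM with oxLDL, against 39.5 CPM untreated, in wild type (adjusted p = 0.171). Etfb had 28.2 and 23.2 CPM with oxLDL, against 28.4 and 29.4 CPM untreated, in the mutant, and 24.9 CPM with oxLDL, against 29.4 CPM untreated, in wild type. For Etfb the direction of the values was the opposite one, every oxLDL library below every untreated library, with a log2 change of -0.19 ± 0.11 SE, adjusted p = 0.200 by edgeR. The 2 subunits of 1 protein thus had values on either side of 0 without a call. Of the 75-base stretches of Etfb, 39.6% also occur in other mouse genes, most often Gm45233, so that the count of Etfb is uncertain. These genes lie outside the deposited table, as 0% of the stretches were shared with genes in it.

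Acot2 encodes a thioesterase of the mitochondrial matrix that frees fatty acids from coenzyme A. It had 13.8 and 14.6 CPM in mutant cells with oxLDL, against 8.20 and 5.52 CPM in mutant cells left untreated, and 16.4 CPM in wild-type cells with oxLDL, against 4.65 CPM in wild-type cells left untreated. In each genotype oxLDL values exceeded untreated values, by the wider margin in wild type, where the untreated level was the lowest of the 6. The mean was 14.9 ± 1.34 CPM with oxLDL and 6.12 ± 1.85 CPM untreated (SD, n = 3 each; log2 fold change 1.31 ± 0.22 SE, 2.48-fold, adjusted p = 0.00469 by edgeR). In the mutant alone the log2 fold change was 1.06 ± 0.22 SE (adjusted p = 0.0141, or 0.0606 without mutant untreated library 2). Of the 75-base stretches of Acot2, 21.2% also occur in other genes, most often its cytosolic near-copy Acot1, so the division of reads among them is uncertain.

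**Figure D2:**
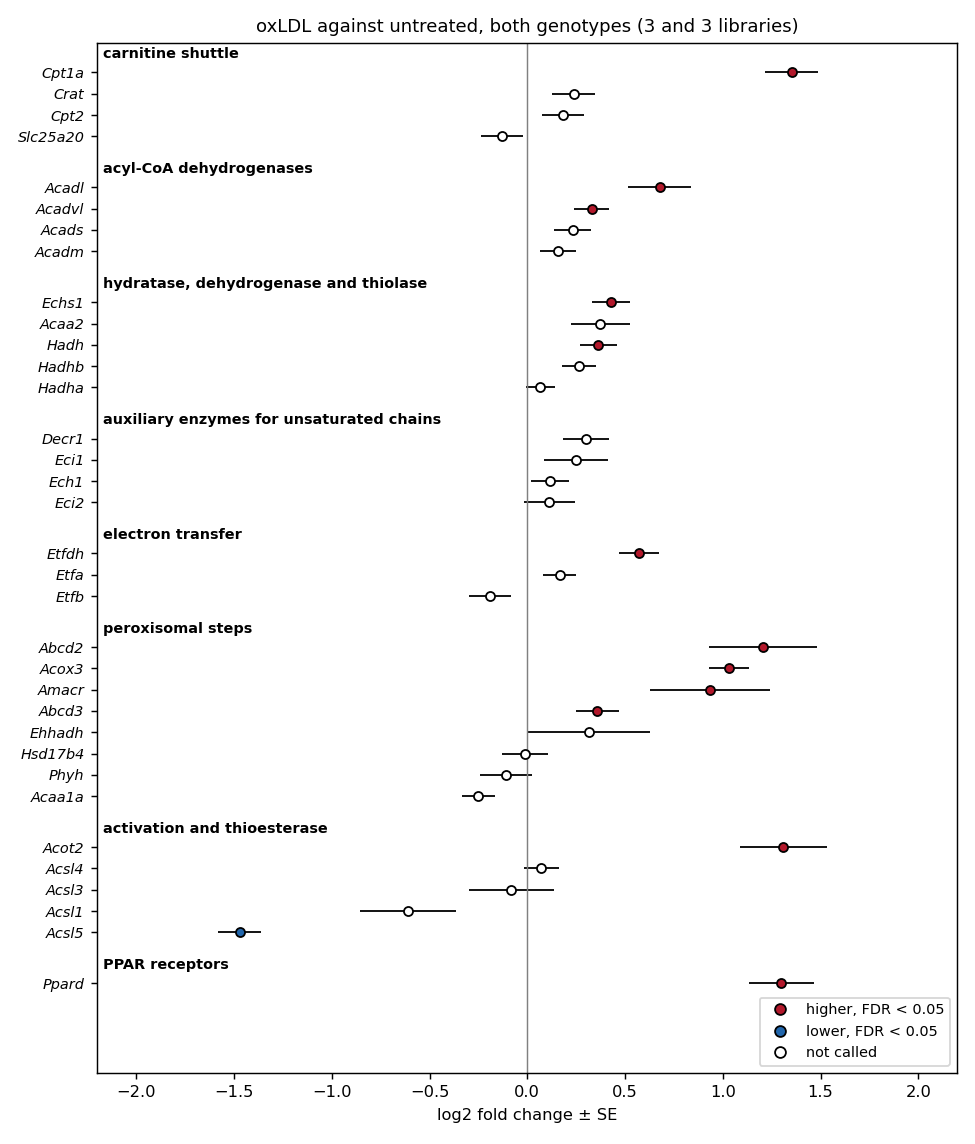
log2 fold change of the 34 tested genes with oxLDL against untreated, across both genotypes, ordered by role. Points are estimates from 3 oxLDL and 3 untreated libraries, whiskers are 1 SE and filled points passed a false discovery rate of 0.05. Most points lie right of 0, and the synthetase Acsl5 stands alone at -1.47.

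In peroxisomes, the ABC transporters Abcd2 and Abcd3 and the oxidase Acox3 rose, and the other 4 enzymes set down as peroxisomal did not pass. Acox3 encodes the acyl-CoA oxidase that acts on branched chains. It had 173 and 191 CPM in mutant cells with oxLDL, against 96.9 and 79.6 CPM in mutant cells left untreated, and 159 CPM in wild-type cells with oxLDL, against 79.2 CPM in wild-type cells left untreated. The oxLDL libraries lay far from the untreated ones in both genotypes. The mean was 174 ± 15.9 CPM with oxLDL and 85.2 ± 10.1 CPM untreated (SD, n = 3 each; log2 fold change 1.03 ± 0.10 SE, 2.04-fold, adjusted p = 0.000613 by edgeR). The log2 fold change was 1.04 ± 0.12 SE in the mutant (adjusted p = 0.00238) and 1.01 in the wild-type pair.

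Abcd2, a transporter of very-long-chain acyl-CoA, had 20.2 and 13.9 CPM in mutant cells with oxLDL, against 10.9 and 7.43 CPM in mutant cells left untreated, and 12.6 CPM in wild-type cells with oxLDL, against 3.43 CPM in wild-type cells left untreated. The wild-type untreated library was by far the lowest, and the lowest oxLDL value was still above the highest untreated one (log2 fold change 1.20 ± 0.28 SE, 2.30-fold, adjusted p = 0.0148 by edgeR). Abcd3, the abundant transporter of branched chains and of bile acid precursors also known as PMP70, had 102 and 87.5 CPM with oxLDL, against 76.3 and 64.4 CPM untreated, in the mutant, and 89.6 CPM with oxLDL, against 76.9 CPM untreated, in wild type. Its rise was smaller (log2 fold change 0.36 ± 0.11 SE, 1.28-fold, adjusted p = 0.0408 by edgeR). Abcd2 lost its call without mutant oxLDL library 1 (adjusted p = 0.0524) or mutant untreated library 2 (0.0691), and Abcd3 lost it without any 1 of the 4 mutant libraries (0.058 to 0.138).

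Amacr, the racemase that turns branched chains into the form the oxidase accepts, found in both organelles, had 4.34 and 4.46 CPM with oxLDL, against 3.26 and 1.56 CPM untreated, in the mutant, and 3.90 CPM with oxLDL, against 1.89 CPM untreated, in wild type. These are low levels, at which the mutant untreated libraries differed by a factor larger than many of the changes described here. It passed narrowly (log2 fold change 0.94 ± 0.31 SE, 1.91-fold, adjusted p = 0.0497 by edgeR), did not pass in the mutant alone (adjusted p = 0.120), and lost its call with relative log expression factors (0.0529) and without any single library other than mutant untreated library 1 (0.106 to 0.123).

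Behind the oxidase, Hsd17b4 encodes the D-bifunctional protein that combines hydratase and dehydrogenase. It had 115 and 118 CPM in mutant cells with oxLDL, against 105 and 104 CPM in mutant cells left untreated, and 113 CPM in wild-type cells with oxLDL, against 145 CPM in wild-type cells left untreated. The wild-type untreated library was the highest and the mutant pairs lay close together, so that the log2 fold change was -0.01 ± 0.12 SE (adjusted p = 0.943 by edgeR). Ehhadh, the L-bifunctional protein and a known PPARα target in liver, was among the lowest of the genes with 2.92 and 4.85 CPM with oxLDL, against 2.29 and 3.89 CPM untreated, in the mutant, and 3.13 CPM with oxLDL, against 2.51 CPM untreated, in wild type, with overlap between oxLDL and untreated (adjusted p = 0.459). Acaa1a, the peroxisomal thiolase, had 27.7 and 26.3 CPM with oxLDL, against 32.2 and 31.1 CPM untreated, in the mutant, and 24.9 CPM with oxLDL, against 30.5 CPM untreated, in wild type. The Acaa1a values with oxLDL were all below the untreated ones, but the change did not pass (log2 fold change -0.25 ± 0.09 SE, adjusted p = 0.0581 by edgeR). Of the 75-base stretches of Acaa1a, 9.50% occur in other genes, most often its near-copy Acaa1b. Phyh, which opens the alpha-oxidation of phytanic acid, had 45.8 and 45.2 CPM with oxLDL, against 47.5 and 40.1 CPM untreated, in the mutant, and 34.8 CPM with oxLDL, against 47.1 CPM untreated, in wild type, and its log2 fold change came to -0.11 ± 0.13 SE (adjusted p = 0.560).

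Of the synthetases that activate fatty acids, Acsl5 fell across genotypes, Acsl1 fell in the mutant, and Acsl3 and Acsl4 did not pass. Acsl5, found on mitochondria and endoplasmic reticulum, had 124 and 131 CPM in mutant cells with oxLDL, against 303 and 360.2 CPM in mutant cells left untreated, and 141 CPM in wild-type cells with oxLDL, against 447 CPM in wild-type cells left untreated. Its oxLDL values kept within a narrow band in both genotypes, far below the untreated values. The mean was 132 ± 8.57 CPM with oxLDL and 370.2 ± 72.7 CPM untreated (SD, n = 3 each; log2 fold change -1.47 ± 0.11 SE, 2.77-fold lower, adjusted p = 0.000250 by edgeR). The log2 fold change was -1.38 ± 0.12 SE in the mutant (adjusted p = 0.000844) and -1.66 in the wild-type pair.

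Acsl1, the isoform induced by inflammatory stimuli in macrophages, had 109 and 108 CPM in mutant cells with oxLDL, against 198 and 238 CPM in mutant cells left untreated, and 99.9 CPM in wild-type cells with oxLDL, against 86.8 CPM in wild-type cells left untreated. The mutant untreated libraries stood apart from the other 4, which lay close together. In the mutant it fell with oxLDL (log2 fold change -1.00 ± 0.11 SE, 2.01-fold lower, adjusted p = 0.00202 by edgeR), and the log2 fold change in the wild-type pair was 0.20. Across genotypes it did not pass (log2 fold change -0.61 ± 0.24 SE, adjusted p = 0.0914). Acsl3, an enzyme of lipid droplets and endoplasmic reticulum, had 60.8 and 102 CPM with oxLDL, against 70.5 and 80.1 CPM untreated, in the mutant, and 72.7 CPM with oxLDL, against 100.5 CPM untreated, in wild type, with overlap and on the log2 scale -0.08 ± 0.22 SE (adjusted p = 0.790). Acsl4, which prefers arachidonic acid, had 186 and 178 CPM with oxLDL, against 184 and 186 CPM untreated, in the mutant, and 247 CPM with oxLDL, against 206 CPM untreated, in wild type, with the 2 wild-type libraries the highest and an adjusted p of 0.566 for oxLDL.

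Per kilobase of the longest coding transcript, the 4 synthetases together summed to 108 and 118 CPM per kilobase in mutant oxLDL libraries, against 175 and 201 CPM per kilobase in mutant untreated libraries. In wild type the sum was 124 CPM per kilobase in the oxLDL library, against 192 CPM per kilobase in the untreated library. Acsl5 made up 27.2% and 26.2% of that sum in mutant oxLDL libraries, against 40.8% and 42.2% in mutant untreated libraries, and 26.8% in the wild-type oxLDL library, against 54.9% in the wild-type untreated library. It was thus the largest of the 4 in every untreated library. Acsl4 made up 32.6% and 28.5% in mutant oxLDL libraries, against 19.9% and 17.5% in mutant untreated libraries, and 37.7% in the wild-type oxLDL library, against 20.3% in the wild-type untreated library. With oxLDL Acsl4 had the largest share of the 4 in all 3 libraries, while its own level was not called. These shares are a description and were not tested.

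**Figure D3:**
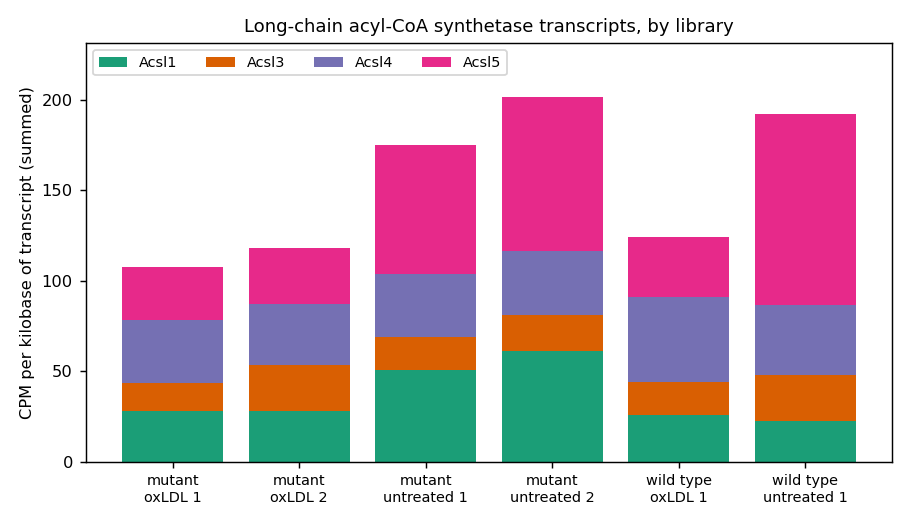
Stacked levels of the 4 long-chain acyl-CoA synthetase transcripts in each library, as CPM per kilobase of the longest coding transcript on a linear axis from 0. The 3 oxLDL columns reach 108 to 124 and the 3 untreated columns 175 to 201, and the Acsl5 band is the one that shrinks in every oxLDL column.

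Of the receptor genes Ppara and Ppard, only Ppard, which encodes PPARδ, had counts. It had 48.9 and 42.3 CPM in mutant cells with oxLDL, against 20.1 and 14.0 CPM in mutant cells left untreated, and 37.3 CPM in wild-type cells with oxLDL, against 18.0 CPM in wild-type cells left untreated. The oxLDL values were all above the untreated ones by a wide margin, with a mean of 42.8 ± 5.83 CPM with oxLDL and 17.4 ± 3.10 CPM untreated (SD, n = 3 each; log2 fold change 1.30 ± 0.17 SE, 2.46-fold, adjusted p = 0.00163 by edgeR). In the mutant alone the log2 fold change was 1.43 ± 0.19 SE (adjusted p = 0.00336), beside 1.05 in wild type. Ppara, the receptor that governs this pathway in liver, had 0 counts in all 6 libraries, which allows a level of up to 0.122 CPM in the deepest library and 0.265 CPM in the shallowest, counting error only.

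In the single wild-type pair, where 1 library per arm gives no replicate check, genes were described by size alone. Of the 32 genes that reached 5 CPM in 1 or both libraries, 5 were at least 2-fold higher with oxLDL (Cpt1a, Abcd2, Acox3, Acot2 and Ppard), Acsl5 was at least 2-fold lower and 26 lay within 2-fold. Of all 9840 genes with that level, 7.92% were at least 2-fold higher and 11.7% lower, 19.6% in all. The log2 fold changes of the 6 were 1.59 for Cpt1a, 1.84 for Abcd2, 1.01 for Acox3, 1.79 for Acot2, 1.05 for Ppard and -1.66 for Acsl5. Abcd2 and Acot2 had log2 fold changes of 0.90 ± 0.27 SE and 1.06 ± 0.22 SE in the mutant, smaller than in wild type, but the test of the difference did not pass for Abcd2 (adjusted p = 0.523) or Acot2 (adjusted p = 0.523).

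Across all 35 genes, 17 had each of the 3 oxLDL libraries above each of the 3 untreated libraries, 3 had each below (Etfb, Acaa1a and Acsl5), 14 overlapped and Ppara was at 0. Among all genes tested, 24.5% lay wholly above and 23.3% wholly below. The mitochondrial genes gave 12 above, 1 below and 5 overlapping, and the peroxisomal genes gave 3 above, 1 below and 3 overlapping.

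The response to oxLDL was compared between genotypes by the difference of the differences, a fit that takes each lone wild-type library to be as variable as a mutant pair. By edgeR none of the 34 genes passed, where 0.489% of all genes were called. At an unadjusted p under 0.05 there were 2 of the 34, and 10.98% of all genes. DESeq2 called 1, Acsl1. For Acsl1 the mutant response minus the wild-type response was, on the log2 scale, -1.21 ± 0.20 SE (edgeR adjusted p = 0.118, the smallest of the 34). The adjusted p was 0.00115 by DESeq2 and 0.000395 with no filter on low counts, and over all alternatives it lay between 0.000395 and 0.149. Hsd17b4, with an adjusted p of 0.297, had the other low unadjusted value, a difference of 0.51 ± 0.15 SE. For Acsl5 the difference was 0.29 ± 0.20 SE (adjusted p = 0.649).

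**Figure D4:**
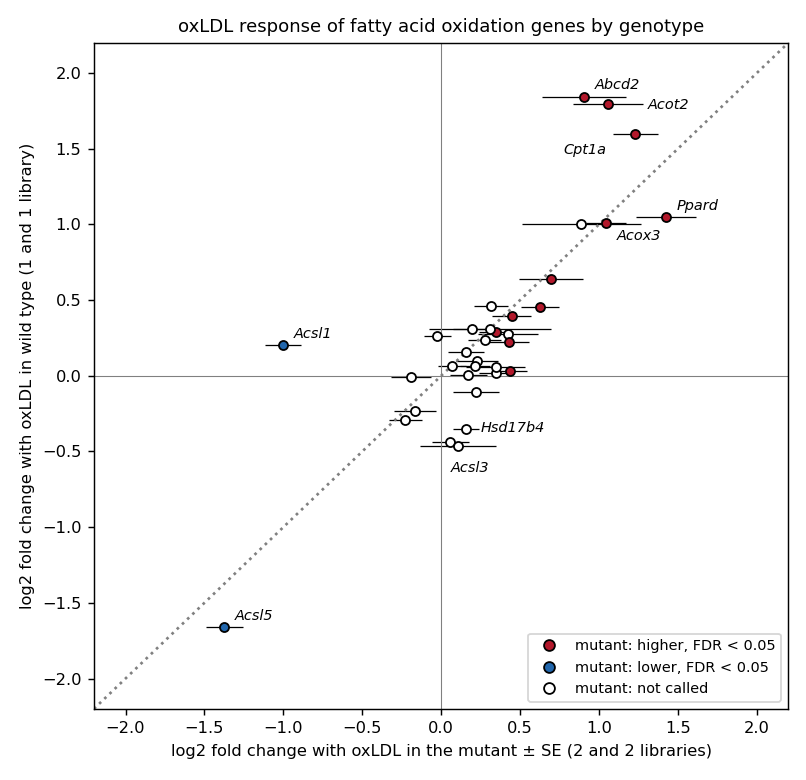
log2 fold change with oxLDL in the mutant (x axis, 2 against 2 libraries, whiskers 1 SE) and in wild type (y axis, 1 against 1 library, no error) for the 34 tested genes, with the line of equal change dotted. Filled points were called in the mutant. Acsl1 lies left of 0 at -1.00 and above 0 at 0.20, and Cpt1a, Acot2, Abcd2, Acox3 and Ppard lie at the upper right.

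Mutant macrophages were set against wild-type macrophages over both treatments (4 against 2 libraries, edgeR with treatment in the model). None of the 34 genes passed, against a background of 4.05% of all genes called, 2.54% higher and 1.51% lower. At an unadjusted p under 0.05 there were 5 genes by edgeR, where 24.4% of all genes had such a p, and 5 by DESeq2, which also called none. The median log2 fold change was 0.11. A p that misses the threshold with 2 wild-type libraries does not show that the genotypes express these genes alike. In 3 genes (Acads, Hadha and Acsl1) the 4 mutant libraries were all above both wild-type libraries, and in Acsl4 they were all below, where 8.49% of all genes lay wholly above and 7.78% wholly below.

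Acads had the smallest adjusted p for genotype, with the mutant higher by 0.34 ± 0.10 SE on the log2 scale (adjusted p = 0.107 by edgeR). Acsl4 had -0.30 ± 0.09 SE (adjusted p = 0.125), Abcd2 0.86 ± 0.30 SE (adjusted p = 0.150) and Hadha 0.16 ± 0.08 SE (adjusted p = 0.274). Acsl1 had 0.69 ± 0.27 SE (adjusted p = 0.180), a value that turned on the wild-type libraries. Without the wild-type oxLDL library it was 1.33 (adjusted p = 0.0154), and without the wild-type untreated library it was 0.13 (adjusted p = 0.724).

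**Figure D5:**
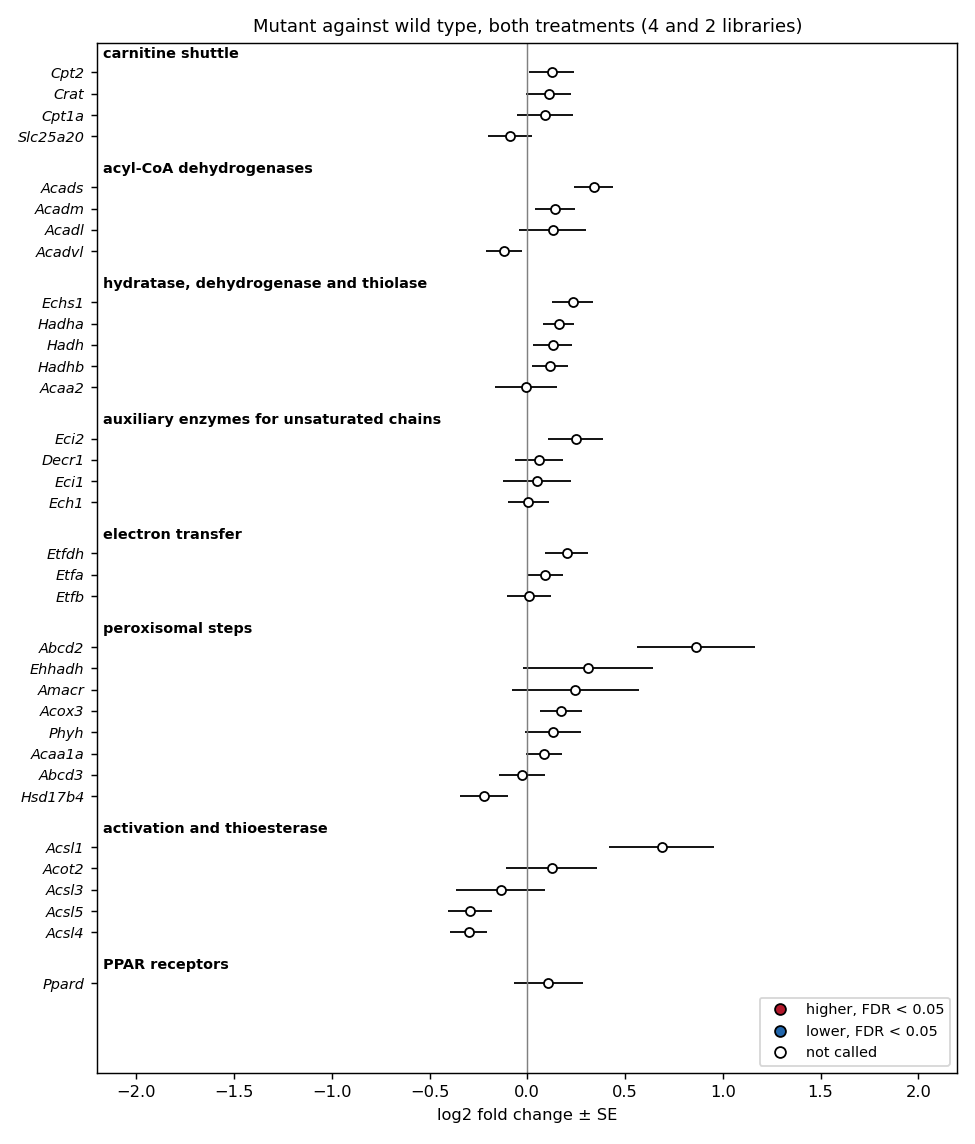
log2 fold change of the 34 tested genes in the mutant against wild type over both treatments, ordered by role as in the plot for oxLDL. Points are estimates from 4 mutant and 2 wild-type libraries with whiskers of 1 SE, and every point is open because none passed a false discovery rate of 0.05. Abcd2 and Acsl1 lie farthest to the right and Acsl4 and Acsl5 farthest to the left.

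Levels can be compared between the genes only per length. Because several of them differ with oxLDL, the order was taken within each treatment, by the median over its 3 libraries of CPM per kilobase of the longest coding transcript. With oxLDL, Acadl stood first at 55.3 CPM per kilobase, followed by Cpt1a at 52.8, Acox3 at 43.5, Hsd17b4 at 42.8 and Acadm at 35.3, and Acsl5 was at 31.0. Untreated, Acsl5 stood first at 84.9 CPM per kilobase, followed by Acsl1 at 50.9, Hsd17b4 at 39.2, Acadl at 35.4 and Acsl4 at 35.2. Cpt1a was at 18.8 and Acox3 at 20.0 in untreated cells. The place of Acsl1 held in the mutant only, with 50.9 and 61.0 CPM per kilobase in its untreated libraries. In the wild-type untreated library Acsl1 was at 22.3, below Hsd17b4 at 53.9. The 3 oxLDL values of Acadl (50.3 to 73.0) overlap those of Cpt1a (45.8 to 53.7), and the untreated values of Acadl (33.7 to 42.5) overlap those of Acsl4 (34.9 to 38.9), so these neighbours do not differ beyond their spread. Over all 6 libraries the lowest medians were those of Abcd2 at 2.13, Amacr at 1.39, Ehhadh at 1.01 and Ppara at 0 CPM per kilobase.

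Other genes around the pathway were taken from 4 lists of known members. Of 31 further genes around mitochondrial acyl-CoA use, a list that also holds enzymes that work mainly outside mitochondria such as Acot1 and Acot7, 27 could be tested, of which 8 rose with oxLDL across genotypes, 2 fell and 17 did not pass. The 4 with the smallest p were Acot13, a matrix thioesterase (log2 fold change 1.05 ± 0.11 SE, 2.08-fold, adjusted p = 0.000755), Hsd17b10, a hydroxyacyl-CoA dehydrogenase (log2 fold change 0.98 ± 0.12 SE, 1.97-fold, adjusted p = 0.00155), Acsf2, a medium-chain acyl-CoA synthetase (log2 fold change 0.90 ± 0.12 SE, 1.87-fold, adjusted p = 0.00196), and Acot7, a mainly cytosolic thioesterase, which fell (log2 fold change -0.84 ± 0.12 SE, 1.79-fold lower, adjusted p = 0.00241, all by edgeR). Of 29 further peroxisomal genes, 22 could be tested, of which 4 rose, 4 fell and 14 did not pass. Cat, the catalase that removes the hydrogen peroxide made by the oxidases, had 1766 and 2038 CPM with oxLDL, against 288 and 238 CPM untreated, in the mutant, and 2668 CPM with oxLDL, against 355 CPM untreated, in wild type. The oxLDL libraries all lay far above the untreated ones (log2 fold change 2.87 ± 0.13 SE, 7.32-fold, adjusted p = 7.72e-05 by edgeR). Nudt12, a peroxisomal NADH hydrolase, rose (log2 fold change 1.70 ± 0.22 SE, 3.25-fold, adjusted p = 0.00184).

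Of 19 genes for building and dividing peroxisomes, all 19 could be tested, and 7 rose, none fell and 12 did not pass. Those that rose include Pex26 (log2 fold change 0.94 ± 0.17 SE, 1.92-fold, adjusted p = 0.00539), which helps return the import receptor from the membrane, that receptor itself, Pex5 (log2 fold change 0.55 ± 0.10 SE, 1.46-fold, adjusted p = 0.00664), and Mff, a factor of fission (log2 fold change 0.51 ± 0.09 SE, 1.42-fold, adjusted p = 0.00469, all by edgeR). Of 26 partners and known targets of the PPAR receptors, 22 could be tested, and 8 rose, 4 fell and 10 did not pass. Fabp5, a fatty acid binding protein known to deliver ligand to PPARδ, had 1269.7 and 1193 CPM with oxLDL, against 512 and 328 CPM untreated, in the mutant, and 803 CPM with oxLDL, against 158 CPM untreated, in wild type (log2 fold change 1.82 ± 0.23 SE, 3.52-fold, adjusted p = 0.00165). Plin2, the coat of lipid droplets, had 698 and 546 CPM with oxLDL, against 323 and 248 CPM untreated, in the mutant, and 959.7 CPM with oxLDL, against 283 CPM untreated, in wild type (log2 fold change 1.34 ± 0.19 SE, 2.52-fold, adjusted p = 0.00239). Both were higher with oxLDL in either genotype without overlap. Txnip was lower (log2 fold change -1.49 ± 0.11 SE, 2.82-fold lower, adjusted p = 0.000213). In these 4 lists the calls ran against the same background of 19.1% higher and 21.4% lower as above.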

How the data were processed

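The 6 libraries of mouse macrophage RNA were made with a stranded polyadenylated RNA kit from 250 ng RNA and read as 150-base paired ends, per the labels' protocols. The authors deposited expected counts per gene, made with Bowtie2 2.1.0 and RSEM 1.2.15, and a normalised signal made with edgeR, per the submitters' processing notes. The notes name hg19 while the gene names are mouse ones, so the genome build is left unstated and no position is taken from the counts. From the deposited signal, whole reads were recovered (100% of values within 1e-06 of a whole number), and at least 99.89% of genes per library had the same whole number as the rounded expected count.

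Expected counts were rounded to whole numbers, and CPM were computed from them with trimmed mean of M-values (TMM) factors. The filter filterByExpr kept 12689 of 17143 genes with any count, and edgeR 4.0.16 (R 4.3.3) gave quasi-likelihood tests with Benjamini-Hochberg adjustment over all of them. SE, which is approximate, was taken as a log2 fold change over the root of its F value. The wild-type pair was described by size, with a prior count of 2. The steps were tested on simulated data. Genes with a call, the 3 with the smallest p in each role group and up to 4 of each further list are named with values. A few genes of the further lists that fall under it are not reported here. The genes and lists were chosen with earlier results of these data known. Per-length levels and shared 75-base stretches used GENCODE M21 transcripts, and windows before the start used RefSeq. Some identical stretches lie in genes outside the deposited table. Alternatives were relative log expression factors, no filter on low counts, DESeq2 1.42.0, a replicate block, leaving out each library and, chosen after seeing the data, recovered reads and leaving out the pancreas markers. Intervals and floors cover counting error only.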

Additional observations from a re-analysis of the deposited data

How the results depend on the processing

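No fatty acid oxidation gene reversed its direction of a call under any alternative. Across genotypes 6 of the 13 called genes (Cpt1a, Etfdh, Acox3, Acsl5, Acot2 and Ppard) and in the mutant 5 of 13 (Cpt1a, Acox3, Acsl1, Acsl5 and Ppard) passed under all 12 alternatives. Leaving out either wild-type library leaves the test across genotypes to the mutant pairs, so it gives back the mutant comparison. Leaving out each library in turn gave 6 to 13 called across genotypes (3480 to 4529 of all genes), 6 to 13 in the mutant (2626 to 4529), 0 to 1 for genotype (8, without mutant untreated library 2, to 877) and 0 to 0 for the difference of responses (19 to 246). DESeq2 called 8 of the genes in the mutant, against 13. Over all genes, the count for genotype was 514, against 1513 by DESeq2 and 1387 with no filter. For the difference of responses it was 62, against 221 by DESeq2, 546 with no filter, 162 with the replicate block and 24 without the pancreas markers, and 1 of the fatty acid oxidation genes (Acsl1) was called by DESeq2, with no filter and with the block, against 0. In wild type 1926 genes were at least 2-fold apart, against 2997 with no minimum level and 2946 called by a test that borrows the spread of the mutant pairs. The cause of these differences was not tested. Replicate numbers are shared by 2 mutant pairs and 1 wild-type pair, which, with 1 library per group, allows no check. The numbers alone do not show a common origin. Deviations in the mutant correlated with r = 0.204 over 12689 genes. With 2 libraries per mutant group and no reference value for unpaired libraries, this r cannot decide whether the libraries were paired. With the replicate block 13 of the genes were called across genotypes (4765 of all genes), Amacr being lost (adjusted p = 0.0520) and Acaa2 gained (0.0436), and 15 in the mutant (5089), Crat (0.0341) and Acaa2 (0.0435) being gained. The genotype comparison could not be fitted with the block, nor the difference of responses without a wild-type library. Depth limits Ppara, Amacr and Ehhadh most.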

Other observations

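Genes that share acyl-CoA intermediates with fatty acid oxidation were also measured, and those given here were chosen after their values were seen. Acat1, the acetoacetyl-CoA thiolase of mitochondria, had 31.4 and 28.6 CPM with oxLDL, against 44.3 and 44.9 CPM untreated, in the mutant, and 27.5 CPM with oxLDL, against 45.6 CPM untreated, in wild type. Its oxLDL libraries all lay below its untreated libraries (log2 fold change -0.62 ± 0.09 SE, adjusted p = 0.00254 by edgeR). Oxct1, which starts the use of ketone bodies, ranged over 186 to 255 CPM and did not pass (adjusted p = 0.0987).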
